A study of Mus musculus with 20 samples.

Results

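Striatal expression is described here for 10 genes that restrain the mitogen-activated protein (MAP) kinases: the phosphatase genes Dusp1, Dusp4, Dusp5, Dusp6, Dusp7 and Dusp14, the Sprouty genes Spry1, Spry2 and Spry4, and the Sprouty-related gene Spred1. They were taken by gene symbol, and all 10 were found among the 39179 genes counted. The mice were adult males about 6.5 months old from generation 17 of a breeding experiment whose founders came from an inter-cross of 8 inbred strains. One line, High-Active, was selected for distance traveled in the home cage, and the other, Control, was bred without selection. Each mouse was injected with saline or with 0.25 mg/kg amphetamine, and the whole bilateral striatum was collected 2 hours later. Line and treatment together made 4 groups of 5 mice: Control and High-Active after saline, and Control and High-Active after amphetamine. As a model, the design has 1 selected and 1 unselected line, so a difference due to selection and one due to drift cannot be told apart. There were 8 parental pairs behind the 10 Control mice but only 5 behind the 10 High-Active mice, 9 of which had a full sibling in the experiment.

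Signals from growth factor, glutamate and dopamine receptors reach the MAP kinase ERK through Ras, Raf and MEK, and in striatal neurons ERK is known to act in the response to psychostimulants. Active ERK carries phosphate on a threonine and a tyrosine, and dual-specificity phosphatases (DUSPs) remove both. Sprouty and Spred proteins act higher up, between the receptor and Raf. Transcription of several of these brakes is itself switched on by ERK, which makes them negative feedback genes, and their transcripts are often read as a trace of recent ERK activity.

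Because transcription of Dusp1 and Dusp5 is known to respond quickly to stimulation, their promoters are shown with the sites through which such responses commonly run. Each window holds the 250 bases before and 50 bases after the annotated start (RefSeq, GRCm38.p6), read along the strand of the gene, at chr17:26508423-26508722 on the minus strand for Dusp1 and chr19:53528895-53529194 on the plus strand for Dusp5. Capitals mark matches to the cyclic AMP response element (CRE, TGACGTCA), to its core (TGACGT) and to the CArG box of serum response factor.
Dusp1: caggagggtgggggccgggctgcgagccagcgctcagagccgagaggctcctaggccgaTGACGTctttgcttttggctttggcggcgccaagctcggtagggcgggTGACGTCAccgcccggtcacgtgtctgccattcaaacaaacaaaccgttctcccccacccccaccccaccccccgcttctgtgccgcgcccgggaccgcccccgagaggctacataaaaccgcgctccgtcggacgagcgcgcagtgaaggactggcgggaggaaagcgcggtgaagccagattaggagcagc
Dusp5: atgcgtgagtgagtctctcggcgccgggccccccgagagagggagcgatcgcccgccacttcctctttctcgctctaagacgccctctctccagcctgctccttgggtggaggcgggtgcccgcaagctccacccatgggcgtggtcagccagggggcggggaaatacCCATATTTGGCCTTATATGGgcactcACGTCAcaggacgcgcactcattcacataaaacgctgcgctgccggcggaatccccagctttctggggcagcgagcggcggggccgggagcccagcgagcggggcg

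In Dusp1 the full CRE began 143 bases before the start. It contains the core on both strands, and a further core began 191 bases before the start. In Dusp5 a core on the opposite strand began 56 bases before the start, and 2 adjoining CArG boxes began 82 and 72 bases before it. Of the 8 members with a promoter entry, all but Dusp4 and Spry4, the full CRE was found in 1, the core in 2 and the CArG box in 1. All these matches lay in the 2 promoters shown. Those of Dusp6, Dusp7, Dusp14, Spry1, Spry2 and Spred1 held none. Searched on both strands in the same way, the full CRE was present in 1.79% of 32851 promoters of this length, the core in 7.51% and the CArG box in 1.63%. The AP-1 site (TGANTCA), present in 7.81% of all promoters, and the EGR site (GCGNGGGCG), present in 5.55%, were found in 0 of the 8. These matches describe letters in a short window and do not show binding.

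All 10 genes were measured well above the detection floor. The reads assigned to genes numbered 32388971 to 53710713 per mouse, and the lowest count of any member in any mouse was 129, for Dusp5. At the lowest depth, 3 counts correspond to a CPM (count scaled to the library size) of 0.0926, whereas the lowest value of any member was 3.99 CPM. The tissue label was checked with 10 markers of medium spiny neurons, the principal cells of the striatum, all of which passed the filter on low counts and together reached 4397 to 7244 CPM. Markers of cortical excitatory neurons, which the striatum should lack, were also found, and their levels are given beside the comparisons below.

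Per length, Spred1 was the most abundant of the members, and Spry1 the least. Mean levels over the 20 mice, in CPM per kilobase of exon, were 41.4 ± 4.13 (SD) for Spred1, 27.2 ± 3.37 for Spry2 and 22.1 ± 6.66 for Dusp14. Spred1 exceeded Spry2 in all 20 mice, and Spry2 exceeded Dusp14 in 18. Dusp7 and Dusp6 followed at 12.8 ± 1.87 and 12.2 ± 3.53, and this pair did not separate, since Dusp7 was above Dusp6 in 13 mice. Dusp1 stood at 7.37 ± 2.00, below Dusp6 in every mouse. Lengths are the merged exons of each gene in GENCODE M21, and the order depends on them. For Dusp1 (3311 bases) the annotated gene extends upstream of the start used for its promoter, and a shorter length would raise its value. Dusp4 reached 3.69 ± 1.06, and the lowest 3 were Spry4 (3.05 ± 0.539), Dusp5 (2.87 ± 0.685) and Spry1 (2.74 ± 0.236). Their order was not firm, with Spry4 above Dusp5 in 14 mice and Dusp5 above Spry1 in 10. Abundance therefore did not follow the division into DUSP and Sprouty families, each of which held members in the upper and the lower part of this order.

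Dusp1 (ENSMUSG00000024190, chr17:26505590-26562128, minus strand) encodes a nuclear phosphatase that acts on p38 and JNK as well as on ERK and belongs to the immediate early genes. In Control saline mice it was counted at 17.4, 18.8, 23.9, 23.9 and 25.5 CPM, and in Control amphetamine mice at 17.1, 17.9, 27.0, 27.9 and 43.0 CPM. After amphetamine, 3 Control mice thus lay above all saline Control mice and the lowest lay below them. High-Active saline mice had 18.7, 19.3, 20.2, 21.4 and 34.7 CPM, and High-Active amphetamine mice had 22.6, 22.6, 23.7, 29.9 and 32.4 CPM. Here all treated mice were above 4 of the 5 saline mice and below the other, mouse 499. In the annotation an exon of Dusp1 shares 11 bases with an exon of Ergic1 on the other strand.

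Dusp4 and Dusp5 encode the other nuclear phosphatases of the group, and Dusp5 is known to be specific for ERK. Dusp4 (ENSMUSG00000031530, chr8:34807297-34819894) ranged from 6.16 to 11.6 CPM in Control saline, 5.70 to 16.6 in Control amphetamine, 8.04 to 15.3 in High-Active saline and 7.48 to 13.7 in High-Active amphetamine mice. The range of the Control amphetamine mice enclosed those of the other 3 groups. Dusp5 (ENSMUSG00000034765, chr19:53529109-53542431) had 5.41, 5.93, 7.17, 9.00 and 10.1 CPM in Control saline mice and 5.61, 6.79, 8.38, 8.86 and 9.42 CPM in Control amphetamine mice. In High-Active mice it had 5.38, 6.01, 6.57, 6.57 and 8.72 CPM after saline and 3.99, 5.21, 6.74, 6.96 and 9.28 CPM after amphetamine. Control and High-Active values overlapped over most of their range in both treatments. GENCODE M21 places an antisense transcript over 547 bases of the Dusp5 exons and a putative one over 710 bases of those of Spry1, and reads from these cannot be told from the gene's own where counting ignores the strand, which is not stated here.

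Dusp6 (ENSMUSG00000019960, chr10:99263231-99267489) encodes a cytoplasmic phosphatase specific for ERK and is widely used as a readout of ERK signaling. Control saline mice had 31.1, 31.6, 32.3, 36.6 and 45.2 CPM, and Control amphetamine mice had 33.4, 37.1, 42.6, 49.8 and 59.5 CPM. All 5 treated Control mice lay above the median of the saline mice, 32.3 CPM, but the groups overlapped. In High-Active mice Dusp6 was at 27.1, 29.6, 30.2, 32.9 and 55.9 CPM after saline and at 23.9, 24.2, 36.8, 47.1 and 58.9 CPM after amphetamine. The treated High-Active mice held both the lowest values and the second highest value of all 20, so that this group spanned nearly the whole range.

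Dusp7 (ENSMUSG00000053716, chr9:106368632-106375724), which encodes a close relative of the Dusp6 protein, was the least variable of the phosphatase genes. Its lowest and highest values were 35.1 and 54.2 CPM in Control saline, 41.5 and 50.9 in Control amphetamine, 34.5 and 43.9 in High-Active saline and 33.2 and 51.7 in High-Active amphetamine mice. Dusp14 (ENSMUSG00000018648, chr11:84048041-84069261, minus strand) encodes a small atypical phosphatase that lacks the MAP kinase binding domain of the others. Control saline mice had 34.6, 35.1, 45.7, 49.3 and 52.0 CPM of Dusp14, and Control amphetamine mice had 32.7, 39.7, 40.0, 45.5 and 64.0 CPM. High-Active saline mice had 29.2, 35.3, 36.2, 45.4 and 81.0 CPM, and High-Active amphetamine mice had 24.3, 29.5, 42.6, 45.6 and 51.3 CPM. The highest value of all 20 mice, 81.0 CPM in mouse 499, and the lowest, 24.3 CPM in mouse 415, both came from the High-Active line. Mouse 871, a full sibling of mouse 499 that also received saline, had 36.2 CPM.

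The Sprouty genes and Spred1 varied less than most of the phosphatase genes. Spry1 (ENSMUSG00000037211, chr3:37639947-37644598) had 6.92, 7.50, 7.76, 8.23 and 8.59 CPM in Control saline mice and 6.57, 7.00, 7.12, 7.85 and 9.20 CPM in Control amphetamine mice. In High-Active mice it had 7.74, 7.79, 7.80, 8.06 and 8.97 CPM after saline and 8.20, 8.24, 8.42, 8.47 and 8.51 CPM after amphetamine. The treated High-Active mice had an SD of 0.140 CPM, less than counting error alone would give at their counts of 275 to 470. They lay above 4 of the 5 treated Control mice, but mouse 407 of the Control line was above them all. Spry2 (ENSMUSG00000022114, chr14:105891947-105896819, minus strand), an inhibitor of signaling from receptor tyrosine kinases, ranged from 43.8 to 68.0 CPM over the 20 mice. Spry4 (ENSMUSG00000024427, chr18:38586247-38601415, minus strand) ranged from 11.3 to 20.2 CPM. Spred1 (ENSMUSG00000027351, chr2:117121374-117182279), whose protein brings the Ras inhibitor neurofibromin to the membrane, ranged from 235 to 335 CPM. Both extremes of Spred1 came from High-Active mice (mice 487 and 483), with Control mouse 407 close to the top at 334 CPM.

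**Figure D1:**
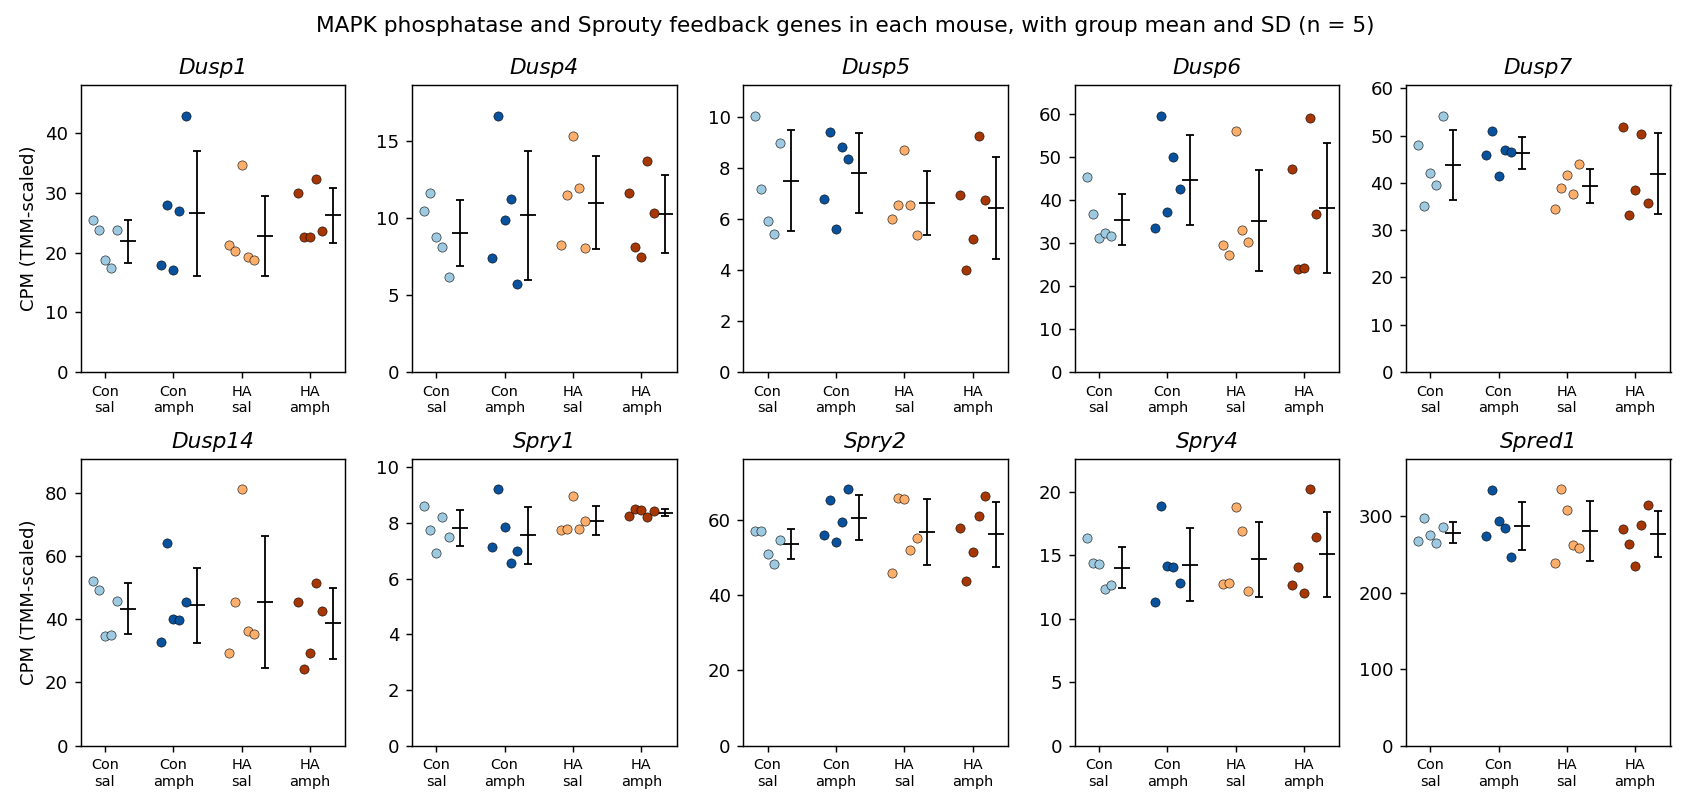
CPM of the 10 genes (vertical axes, from 0) in each mouse of the 4 groups (Con, Control; HA, High-Active; sal, saline; amph, amphetamine). Each point is 1 mouse, and the bar beside each group is its mean with the SD (n = 5); the groups overlap for every gene, and single mice such as the one at 81.0 CPM of Dusp14 stand above their group.

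To ask whether the lines differ in these brakes, High-Active mice were compared with Control mice as the mean of the differences in the saline and in the amphetamine mice (line effect). None of the 10 genes passed the threshold of an adjusted p under 0.1 (edgeR's quasi-likelihood test with Benjamini-Hochberg adjustment), and 0 of the 10 had an unadjusted p under 0.05. Among all 14792 genes tested, 14.5% passed the first threshold and 26.1% the second. DESeq2 called 2810 genes, of which 0 were members. The smallest p belonged to Dusp7, with a log2 fold change of -0.15 (SE 0.088, 95% interval -0.33 to 0.03, adjusted p = 0.292). Spry1 followed with a log2 fold change of 0.10 (SE 0.059, interval -0.02 to 0.22, adjusted p = 0.303). Dusp5 had the largest difference, -0.23 (SE 0.15, interval -0.54 to 0.09, adjusted p = 0.361), with means of 7.66 ± 1.70 CPM (SD, n = 10) in Control and 6.54 ± 1.58 CPM (SD, n = 10) in High-Active mice. Of 28 fits of the line effect, 3 gave Dusp7, 1 gave Dusp5 and 1 gave Spry1 an unadjusted p under 0.05. The lowest adjusted p among them was 0.111 (Spry1 without mouse 407, quasi-likelihood test).

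The remaining genes had smaller line differences than Dusp5, and the precision differed widely among them. Dusp4 was estimated at 0.15 with an interval of -0.23 to 0.53 on the log2 scale, that is between 0.855-fold and 1.44-fold. Dusp6 was estimated at -0.11 (-0.47 to 0.25), Dusp14 at -0.06 (-0.44 to 0.31) and Dusp1 at 0.02 (-0.30 to 0.35). The intervals of these 4 genes together reached from 0.721-fold, for Dusp6, to 1.44-fold, for Dusp4. The bounds were tighter for Spred1, from 0.897-fold to 1.09-fold, and for Spry2, from 0.888-fold to 1.11-fold. Spry4 was estimated at 0.07 (-0.16 to 0.31). The median log2 fold change was -0.02 over the 10 genes and 0.00 over all genes tested.

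No member passed the test between the lines within either treatment. In saline mice 0 of 10 members were called at the adjusted threshold, where 3.74% of all genes were, and 0 of 10 were at an unadjusted p under 0.05, against 17.4% of all genes. In amphetamine mice both counts were again 0 of 10, against 1.30% and 12.6% of all genes. The smallest p in the amphetamine mice was that of Spry1, with a log2 fold change of 0.15 (SE 0.084, adjusted p = 0.468). Without mouse 407, the Control mouse with the highest Spry1 value, this difference was 0.23, with an unadjusted p under 0.05 and an adjusted p = 0.224. Leaving out that mouse could only widen the difference. Of 28 fits of the amphetamine mice comparison, 2 gave Spry1 and 1 gave Dusp5 an unadjusted p under 0.05.

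The amphetamine effect asked whether the brakes differed 2 hours after injection, as the mean of the amphetamine minus saline differences of the lines. Only this time was sampled, so a change that had already passed would not be seen. Again 0 of 10 members were called and 0 of 10 had an unadjusted p under 0.05. By this test no gene of the series was called at the adjusted threshold (0% of those tested), and 12.5% had an unadjusted p under 0.05. Dusp1 was higher by 0.24 on the log2 scale (SE 0.157, interval -0.09 to 0.57, adjusted p = 0.557), or 18.1%, and Dusp6 by 0.23 (SE 0.171, interval -0.13 to 0.58, adjusted p = 0.637), or 16.9%. Neither difference exceeded the spread between mice, and DESeq2 called 0 of the 10 members among the 391 of 14792 genes that it called for this effect. Both estimates changed with mouse 499. This mouse, singled out after its values were seen, was the highest saline mouse for both genes, so leaving it out could only raise them. Without it the estimates were 0.34 for Dusp1 (adjusted p = 0.401) and 0.34 for Dusp6 (adjusted p = 0.439), both at an unadjusted p under 0.05. For each of these genes this was the only 1 of 28 fits under that threshold.

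The estimate was near 0 for Dusp5 (0.01, interval -0.31 to 0.32), Spry1 (0.00, -0.12 to 0.13) and Spred1 (0.01, -0.13 to 0.15). Dusp7 and Spry2 were estimated at 0.09 and 0.08, Dusp4 at 0.04 and Spry4 at 0.03. Dusp14, by contrast with Dusp1 and Dusp6, was estimated at -0.10 (interval -0.48 to 0.28). In all, 9 of the 10 estimates were positive, with a median of 0.03, against 6950 of 14792 genes and a median of -0.01. Since the members varied together between mice, as described below, their signs are not independent.

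No member passed the test of a difference between the responses of the lines. The difference of responses (High-Active minus Control) gave an adjusted p of 1 for all 10 genes, with 0 of 10 at an unadjusted p under 0.05. By the quasi-likelihood test and by DESeq2 no gene of the series was called for this effect (0%), the likelihood-ratio test called 6 genes, none a member, and 2.97% of genes had an unadjusted p under 0.05. Spry2 had the smallest p, with a difference of -0.19 (SE 0.154). It was estimated to respond by 0.18 in Control mice (SE 0.109, adjusted p = 0.815) and by -0.02 in High-Active mice (SE 0.109, adjusted p = 0.986). The intervals of this effect were wide, reaching from -1.02 to 0.49 for both Dusp4 and Dusp14. Within Control mice the quasi-likelihood test called 0 of 10 members for the amphetamine response (0% of all genes), and 0 of 10 had an unadjusted p under 0.05, against 6.35%. Within High-Active mice these counts were also 0 of 10, against 0% and 8.43% of all genes by this test. DESeq2 called 6 genes within Control and 131 within High-Active mice, and the likelihood-ratio test called 45 and 280, in each case 0 of them members.

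**Figure D2:**
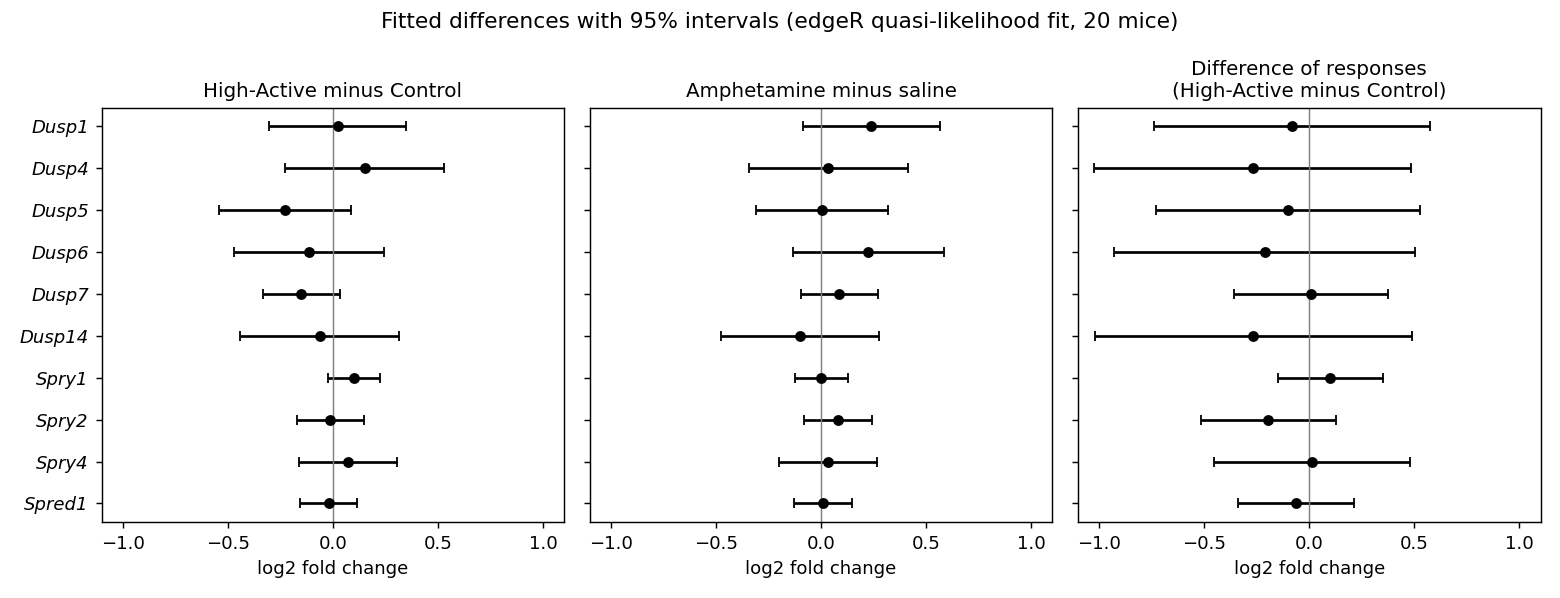
Log2 fold changes (horizontal axes) of the 10 genes for the line effect, the amphetamine effect and the difference of responses, with 95% intervals from the fit to 20 mice. All 30 intervals include 0, and those for the difference of responses are the widest, as for Dusp4 (-1.02 to 0.49).

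The groups overlapped for every member in each of 6 comparisons: between the lines, between the treatments, and each of these within the levels of the other factor. Groups that did not overlap were found for 0.264% of all genes between the lines and 0.0135% between the treatments. Within saline and amphetamine mice the lines did not overlap for 4.23% and 2.94% of genes. Within Control and High-Active mice the treatments did not overlap for 1.11% and 0.892%.

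Cortical genes are given beside these comparisons because part of them differed between the lines. Markers of other cell types were also called for line, as were 14.5% of all genes. Higher were 2 of 8 oligodendrocyte, 2 of 6 astrocyte and 1 of 7 endothelial and pericyte markers. Lower were 1 astrocyte marker and 2 of 6 microglia markers. No marker of medium spiny neurons (10) or choroid plexus (5) was called. Of 10 markers of cortical excitatory neurons, 4 were called lower in High-Active mice and 0 higher, with a median log2 fold change of -0.74. After amphetamine 0 of the 10 were called, although 9 were higher at an unadjusted p under 0.05, with a median of 0.95. Their summed level was 318 to 863 CPM in Control saline, 630 to 878 in Control amphetamine, 166 to 352 in High-Active saline and 228 to 1008 in High-Active amphetamine mice. In whole tissue, more cells of a type and more RNA per cell cannot be told apart.

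The members differed in how far they followed these markers among mice of the same group. Dusp7 had the highest correlation with the cortical score (mean z value centred on group means, r = 0.75 over 20 mice), then Dusp5 (0.62) and Dusp6 (0.48), while the other members were at or below 0.30. With the score taken without this centring as a covariate, 0 of 10 members were called in any comparison, and the line estimates moved to 0.03 for Dusp5 (SE 0.146), 0.03 for Dusp7 (SE 0.0715) and 0.09 for Dusp6 (SE 0.181). In the same fit the amphetamine estimates became -0.31 for Dusp5 (SE 0.156), -0.13 for Dusp7 (SE 0.0752) and -0.07 for Dusp6 (SE 0.205), so that the direction for these 3 genes turned in both effects. For Dusp1 the directions held, at 0.11 for line and 0.13 for amphetamine. The estimates for Spry1 were as without the covariate, at 0.10 and 0.00. Over all genes this covariate lowered the number called between the lines from 2149 to 439. The score itself differed with line and drug. It was -1.48 to -0.493 in High-Active saline and 0.451 to 0.894 in Control amphetamine mice. The other groups spread more widely, from -0.661 to 1.06 in Control saline and -1.07 to 1.36 in High-Active amphetamine mice. The covariate may thus also take up line and drug differences, and this fit cannot tell these from cortical content.

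Several of the phosphatase genes differed widely between mice of the same group. The biological coefficient of variation, edgeR's estimate of the spread between mice beyond counting error, was 0.282 for Dusp4, 0.279 for Dusp14, 0.266 for Dusp6, 0.245 for Dusp1 and 0.238 for Dusp5. Between 84.4% and 88.8% of all genes tested had a lower value than these 5 genes. Genes of similar abundance had a typical value of 0.130 for Dusp6 and 0.125 for Dusp14. For Dusp5, a gene of low counts, the typical value of 0.230 was close to its own. Spry4 stood at 0.178, Dusp7 at 0.140, Spry2 at 0.123 and Spred1 at 0.106. Spry1 had the lowest value, 0.0996, under the 0.221 typical of its abundance and under the median of all genes, 0.111.

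**Figure D3:**
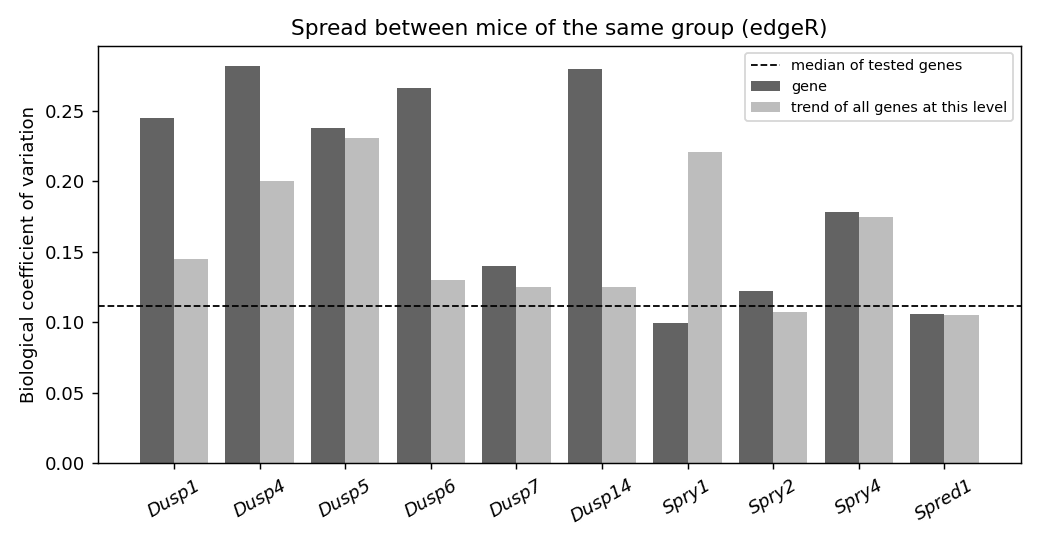
Biological coefficient of variation (vertical axis, no unit) of each gene beside the trend of all genes at the same abundance, with the median of all genes tested (0.111) as a dashed line. Dusp14 and Dusp6 are far above their trend, and Spry1 (0.0996) is below its own (0.221).

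The same mice tended to be high for many of the members. Mouse 407 had the highest value of the Control amphetamine group for 8 of the 10 genes, all but Dusp1 and Spry2. Mouse 499 led the High-Active saline group for 7 genes, mouse 411 the Control saline group for 6 and mouse 872 the High-Active amphetamine group for 6. At the other end, mouse 197 (High-Active saline), mouse 415 (High-Active amphetamine) and mouse 477 (Control saline) were each lowest of their group for 5. Mouse 905, with the longest home cage distance (3.18 km/day) of all mice, was highest of its group for Spry2 and Spred1 and lowest for none. Mouse 483, with the shortest distance of the High-Active mice (0.583 km/day), was highest of its group for the same genes. A relation to home cage distance was not tested.

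Expressed as log2 CPM minus the group mean, the members were positively correlated in all 45 pairs over the 20 mice, with a median Pearson r of 0.499. The coefficient exceeded 0.5 in 22 pairs (48.9%), against 4.79% of the 109394236 pairs of all genes tested, whose median was -0.001. The closest pair was Dusp6 and Dusp14 (r = 0.857, Spearman rho = 0.845). Its coefficient was 0.821 within the Control and 0.871 within the High-Active line, and 0.789 without mice 499 and 872, which lay farthest from the median of Dusp6. Dusp14 and Spry2 (r = 0.833, rho = 0.803), Dusp5 and Dusp6 (r = 0.822, rho = 0.800) and Dusp5 and Dusp14 (r = 0.803, rho = 0.781) came next. Dusp4 went most closely with Spry4 (r = 0.781, rho = 0.738). Spry1 stood most apart, with r = 0.07 to Dusp7 and 0.11 to Dusp1. The first principal component held 57.5% of the variance of the 10 genes.

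Part of this common variation rested on a few mice. Without mice 407, 499 and 872, which were chosen after their values were seen, 35 of the 45 coefficients were positive, 14 exceeded 0.5 and the median was 0.304. Dusp6 and Dusp14 still reached r = 0.717 in the other 17 mice, and Dusp5 and Dusp6 reached the same value. These correlations are descriptions, since all genes of a mouse share 1 library and 1 dissection.

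**Figure D4:**
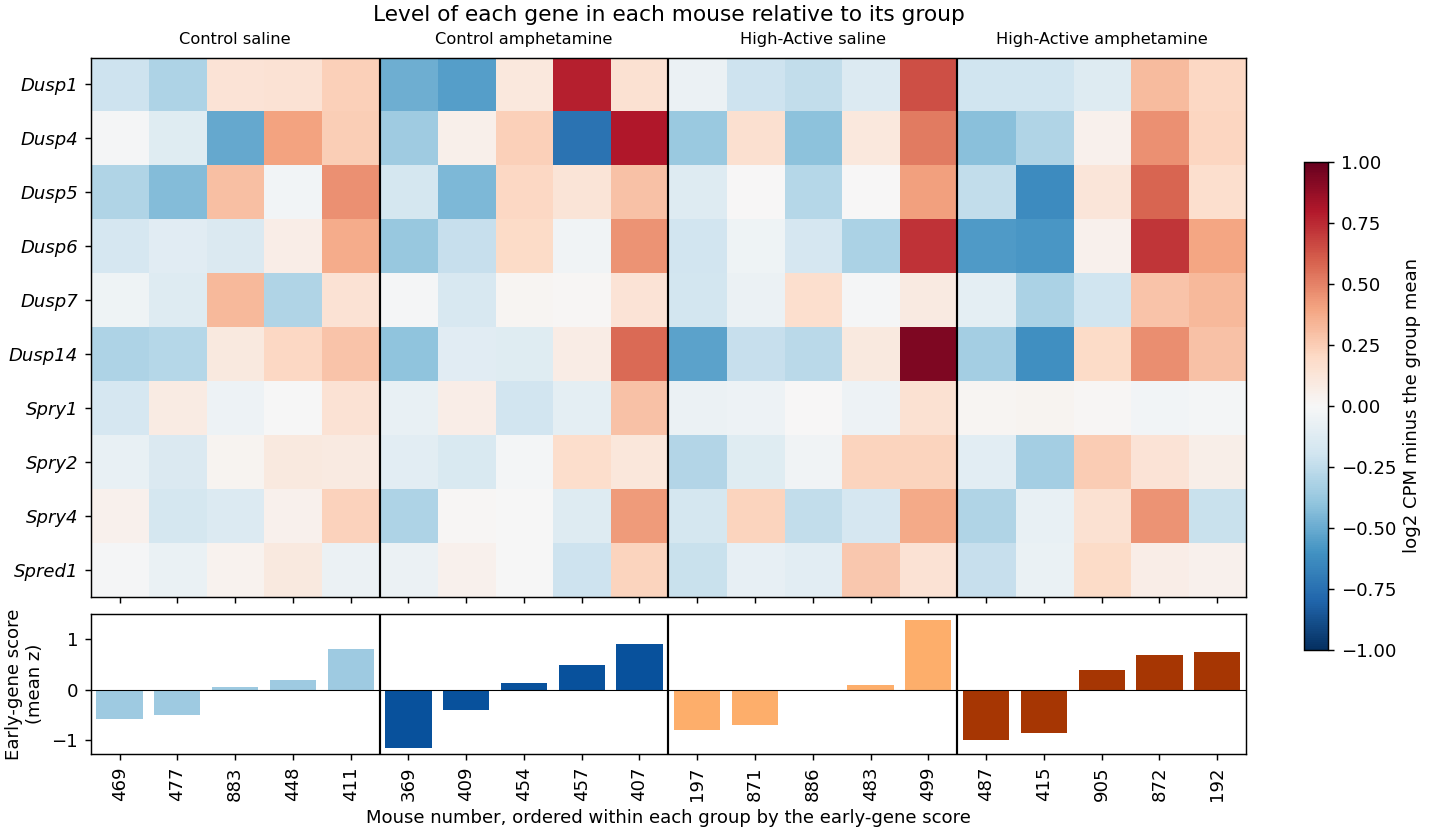
Log2 CPM minus the group mean (color) of the 10 genes in each of the 20 mice, with the early-gene score of each mouse (mean z value of 22 other genes) as bars below. Mice are ordered by this score within each group; most rows change from low to high along it, and the mice with the highest scores, such as mouse 499, are also high for most members.

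The genes most like each member across mice were named by the correlation of these centred values. For Dusp1 they were Junb (r = 0.934, rho = 0.908), Arl4d (r = 0.926) and Fos (r = 0.898), of which Junb and Fos encode partners in the AP-1 transcription factor. For Dusp14 they were the early genes Egr1 (r = 0.949, rho = 0.928) and Fosl2 (r = 0.932), then Dnajb5 (r = 0.924). Egr1 ranged from 134 CPM in mouse 415 to 385 CPM in mouse 499, the mice that also held the lowest and highest Dusp14 values. The coefficient with Egr1 was 0.880 within the Control line, 0.988 within the High-Active line and 0.929 without mice 415 and 499. That of Dusp1 with Junb was 0.952 and 0.921 within the lines and 0.895 without mice 457 and 499.

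Other members had other closest genes. Dusp6 went with Stk40 (r = 0.918) and with Nptx2 (r = 0.917), which encodes a secreted synaptic protein. Dusp5 went with Adrb1 (r = 0.887), the gene of a beta-adrenergic receptor, and with Otud1 and Klf10. Among the genes closest to Dusp4 were Trib2 (r = 0.897) and the neuropeptide precursor gene Vgf (r = 0.884). Stk40 was also among the closest genes of Spry4 (r = 0.865), after Tent4a (r = 0.882). The closest genes were Cemip for Dusp7 (r = 0.912), Znfx1 for Spry2 (r = 0.919) and D5Ertd579e for Spred1 (r = 0.924). Spry1 had the weakest match, Gga3 (r = 0.782), which fell to 0.344 within the High-Active line.

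**Figure D5:**
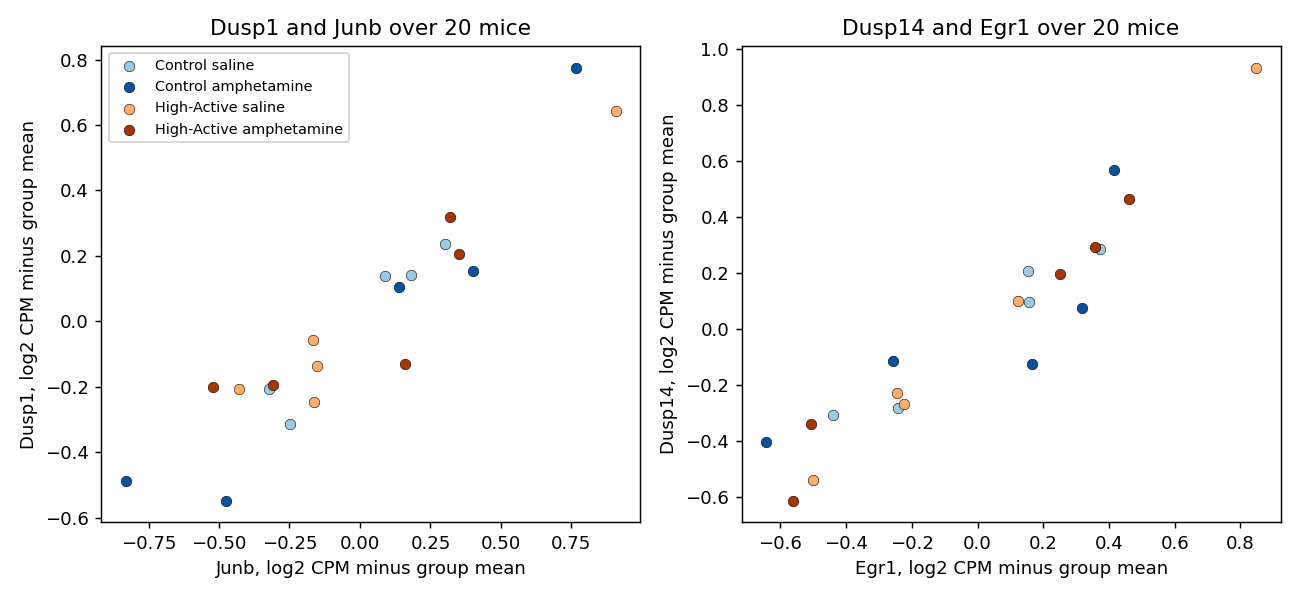
Dusp1 against Junb and Dusp14 against Egr1, each as log2 CPM minus the group mean, with 1 point per mouse colored by group. Points of all 4 groups lie along a common rising trend (r = 0.934 and 0.949 over 20 mice), and mouse 499 is the point at the upper right of the Egr1 plot.

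A list of 22 transcription factor and early genes that respond to ERK, none of them a member, was used to place the members along this variation. The mean z value of the list correlated at r = 0.929 with Dusp14, 0.865 with Dusp6, 0.81 with Spry2, 0.787 with Dusp5 and 0.772 with Dusp1. The remaining coefficients were 0.602 for Spry4, 0.583 for Dusp4, 0.555 for Spred1, 0.547 for Dusp7 and 0.418 for Spry1. Thus 9 of the 10 members exceeded 0.5 over all mice, against 9.48% of all genes tested. Within the Control line Spred1 (0.250), Dusp7 (0.365), Dusp4 (0.406) and Spry1 (0.477) did not exceed 0.5, while the other members did. Within the High-Active line all members but Spry1 (0.476) did, with Spred1 at 0.722, Dusp7 at 0.668 and Dusp4 at 0.799. Without mice 415 and 499 the coefficient of Dusp14 over both lines was 0.912. The early genes were not the only list followed in this way. Over all mice, 8 members exceeded 0.5 with the 2 other Sprouty and Spred genes, against 10.9% of all genes. With the ERK cascade 7 did, against 6.39%. With the other dual-specificity phosphatases 1 member did, against 2.61%. Dusp4 and Spred1 followed the other Sprouty and Spred genes, at 0.838 and 0.765, more closely than the early genes.

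Cell type markers also moved along with the early-gene score. The early-gene score correlated with the score of 10 medium spiny neuron markers at r = 0.511 and with the cortical score at 0.368. All 10 members were negatively correlated with 8 oligodendrocyte markers, from -0.20 for Dusp7 to -0.66 for Spry4. Over all mice, Spry2 and Spred1 followed the medium spiny neuron markers most closely, at 0.765 and 0.615. Spred1 followed 7 markers of endothelial cells and pericytes somewhat more closely still, at 0.661. For Spred1 these coefficients were 0.755 and 0.827 within the High-Active line but 0.151 and 0.375 within the Control line. Spry2 followed the medium spiny neuron markers in both lines, at 0.641 in Control and 0.799 in High-Active mice. Within the Control line Dusp1 (0.531), Dusp14 (0.41) and Dusp5 (0.393) also followed these neuron markers more closely than Spred1. The part of cell composition in the common variation was not tested.

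The other genes of the pathway are given for the line effect, in which 14.5% of all genes tested were called. Of 21 genes of the ERK cascade, 5 were called lower and 0 higher in High-Active mice, with a median log2 fold change of -0.01 over the list. Rasgrp2, which encodes an activator of Rap and Ras, had a log2 fold change of -0.30 (SE 0.0859, adjusted p = 0.0414). Nras (-0.18, adjusted p = 0.053) and Map2k1, which encodes MEK1 (-0.09, adjusted p = 0.0606), were among those called with it. Among 10 tested genes of the JNK and p38 cascades, 2 were called lower, Mapk8 (-0.16, adjusted p = 0.024) and Mapk10 (-0.13, adjusted p = 0.0632), both of which encode JNK kinases. With the cortical score as a covariate, 0 genes of either list were called (Rasgrp2 -0.29, adjusted p = 0.196; Mapk8 -0.09, adjusted p = 0.284).

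Of 11 further inhibitors of Ras and ERK, 1 was called, the gene of the Ras GTPase-activating protein Dab2ip (-0.21, adjusted p = 0.0198), and with the cortical covariate it was not (-0.13, adjusted p = 0.254). DESeq2, which called 2810 of all 14792 genes for the line effect, called 3 of these 11 inhibitors lower and 1 higher. None of 14 tested dual-specificity phosphatase genes outside the group was called, with 1 higher and 1 lower at an unadjusted p under 0.05. The likelihood-ratio test, which called 2269 of all 14792 genes for the line effect, called Dusp28 higher. Neither Spred2 (-0.18, adjusted p = 0.1245) nor Spred3 (-0.08, adjusted p = 0.595) was called, although DESeq2 and the likelihood-ratio test called Spred2 lower. Of 7 kinases that ERK activates, 6 had a negative estimate, 3 of them at an unadjusted p under 0.05, and the likelihood-ratio test called Rps6ka5 lower. In the quasi-likelihood test 1 of the 7 was called, Rps6ka2, which was higher by 0.28 (SE 0.058, adjusted p = 0.00731), and this call held with the covariate (0.26, adjusted p = 0.0687). The line effect called 0 of the 22 early genes, by DESeq2 as well, with 1 lower at an unadjusted p under 0.05. In the same comparison, 1129 of all tested genes were called higher and 1020 lower.

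For amphetamine, the quasi-likelihood test called 0 genes of these 7 lists, whereas DESeq2 called 3 of the JNK and p38 list (Map2k6, Mapk8 and Mapk10) and the early gene Ier2, all higher. The likelihood-ratio test called a different gene of the JNK and p38 list, Mapk11, and both Ier2 and Nr4a2, again higher. Of all 14792 genes, DESeq2 called 391 and the likelihood-ratio test 458 for this effect. At an unadjusted p under 0.05 in the quasi-likelihood test, 5 of 10 genes of the JNK and p38 list were higher. So were 2 of 21 of the ERK cascade and 2 of 22 early genes. In the other direction, 1 gene of the ERK cascade and 1 of the 14 other phosphatases were lower. Over all 14792 genes, 1045 were higher and 799 lower at this threshold, together 12.5%. The early genes Ier2 (0.56, SE 0.166, adjusted p = 0.206) and Nr4a2 (0.94, SE 0.304, adjusted p = 0.228) had the smallest p values of their list in the quasi-likelihood test. Egr1, the gene nearest to Dusp14 in its variation between mice, was estimated at 0.01 (SE 0.187), and Junb, the gene nearest to Dusp1, at 0.10 (SE 0.199). The median over the 22 early genes was 0.07, and 15 of them had a positive estimate.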

How the data were processed

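For each of the 20 mice the authors deposited raw counts of reads per Ensembl gene. Per the labels, stranded libraries were sequenced as paired reads and aligned to GRCm38 (TopHat2 2.0.10, Bowtie2 2.1.0), and HTSeq 0.6.1 is named for the counts; its strand setting is not given in the sources used here. Between 15.97% and 17.49% of the listed reads lay on rows that name no gene and were left out. Of the 39179 identifiers, 37607 had a symbol.

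Genes over 1 CPM in at least 3 mice (14792) were scaled by TMM, and groups were tested in edgeR 4.0.16 (R 4.3.3) with the quasi-likelihood test in a model with 1 mean per group. Adjusted p values are by Benjamini-Hochberg over all genes tested within a comparison, with a threshold of 0.1. The fit was tested on simulated data with 200 changed genes. CPM are TMM-scaled, and log2 CPM has a prior count of 2. Intervals cover the fit only. No mice of a group had counts that agreed within sampling noise. Alternatives were RLE normalization, DESeq2 1.42.0, no filter and a filter of 5 mice, a likelihood-ratio test, limma 3.58.1 (voom) with family as a block, the cortical marker score as a covariate, and each mouse left out.

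List scores are mean z values of log2 CPM centred on group means; the cortical score used as a covariate was not centred. For each member the 3 most correlated genes were named. All members were named; of the other lists, genes called (at most 4 per list and effect, by p), or otherwise those with the smallest p. The members and lists were chosen with earlier results of these data known. Gene positions are from GENCODE M21. A few genes that these rules would name are not reported here.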

Additional observations from a re-analysis of the deposited data

Results flagged for a closer look

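Among the 40 combinations of gene and group, 3 had a mouse far from the other 4 by Dixon's criterion for groups of 5 (gap over range above 0.71), where chance gives about 1 in 20. All 3 were values of mouse 499 in the High-Active saline group. It had 34.73 CPM of Dusp1, against 18.73 to 21.36 in the others, and 55.91 CPM of Dusp6, against 27.14 to 32.86. Its Spry1 value was 8.968 CPM, against 7.739 to 8.058. The same mouse had the highest early-gene score of the 20 mice (1.38) and a cortical score below its group mean (-0.688).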

How the results depend on the processing

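The count of members called was 0 in every comparison under the 7 other settings and with each of the 20 mice left out (189 counts). The lowest adjusted p of any member in any of these fits was 0.111 for the line effect (Spry1 without mouse 407), 0.401 for amphetamine (Dusp1 without mouse 499) and 0.991 for the difference of responses. Of 20 fold changes followed under the 7 other settings, 124 of 140 values kept their direction and 16 turned. With the cortical score as a covariate, line estimates turned to 0.03317 for Dusp5, 0.09143 for Dusp6, 0.02894 for Dusp7, 0.07542 for Dusp14 and 0.03672 for Spry2, and amphetamine estimates to -0.0558 for Dusp4, -0.3118 for Dusp5, -0.07283 for Dusp6, -0.1254 for Dusp7 and -0.05621 for Spry4. In High-Active mice alone this fit gave -0.55 for Dusp5 and -0.24 for Dusp7 for amphetamine, both at an unadjusted p under 0.05 and an adjusted p = 1. The likelihood-ratio test turned Spry2 for line (0.005744) and, for amphetamine, Dusp4 (-0.001757), Dusp5 (-0.0009242), Spry1 (-0.004217) and Spry4 (-7.845e-05), and voom turned Spry1 (-0.00525). The cause of these turns was not tested. Leaving out 1 mouse turned 10 fold changes. For line the range was -0.07843 to 0.1442 for Dusp1, -0.2209 to 0.01942 for Dusp14, -0.04443 to 0.02709 for Spry2 and -0.05572 to 0.008566 for Spred1. For amphetamine it was -0.08826 to 0.1138 for Dusp4, -0.07778 to 0.07398 for Dusp5, -0.1825 to 0.06145 for Dusp14, -0.03718 to 0.02576 for Spry1, -0.03261 to 0.08707 for Spry4 and -0.01809 to 0.04705 for Spred1.

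Over all genes the line effect called 2149 genes by the quasi-likelihood test and 439 with the covariate, and amphetamine called 0 by the quasi-likelihood test, 391 by DESeq2 and 458 by the likelihood-ratio test, none of them a member. Leaving out mouse 415 raised the quasi-likelihood count for amphetamine from 0 to 339, mouse 411 to 128, mouse 197 to 33, mouse 883 to 20 and mouse 457 to 3, again without a member. The groups share no replicate numbers, and relatedness entered through the fit with family as a block, which called 0 members. Precision was limited by the 5 mice per group and their spread. The lowest count of a member was 129. Siblings were treated as independent except in the fit with family as a block.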
